A study of Mus musculus with 30 samples.

Results

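A set of 8 genes of the core pluripotency machinery of mouse embryonic stem (ES) cells was followed through the cell cycle and through withdrawal of the orphan nuclear receptor Esrrb. They are Pou5f1, Sox2, Sall4, Utf1, Lin28a, Dppa2, Dppa4 and Tdgf1, taken by symbol as 8 of the 20300 genes counted over exons. Of these genes 7 were also among the 17916 counted over introns, where Sox2 has no entry. Esrrb peaks within 50 kb of their starts numbered 42 of 14559.

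All cells were 129/Ola ES cells grown on gelatine in serum with LIF. RNA-seq used EKOiE-Ccna-Gfp, an Esrrb knockout line with a doxycycline (DOX)-inducible Esrrb transgene and a Ccna2-Gfp reporter, so that DOX holds Esrrb expression up and its removal lowers it. Cells were sorted by the reporter into early G1, late G1 and G2, either with DOX or after 24 h of withdrawal, with 3 libraries in each of the 6 groups. Esrrb ChIP-seq used EKOiE, either asynchronous (named interphase below) or mitotic after shake-off, with 4 libraries per state with DOX and 2 per state after 48 h of withdrawal. Replicate 2 of both ChIP-seq DOX groups was wild-type E14Tg2a, which carries its own Esrrb. All RNA-seq groups, with or without DOX, share the Esrrb knockout. The labels do not say whether a group's libraries came from separate cultures or whether the line is 1 clone, so p-values measure only the spread between these samples.

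Pou5f1 encodes Oct4, which binds DNA next to Sox2 at many enhancers of ES cells, and both are needed for the pluripotent state. Sall4 is a zinc finger partner of both, Utf1, Dppa2 and Dppa4 are chromatin-bound proteins, Lin28a binds RNA and blocks maturation of the let-7 microRNAs, and Tdgf1 (Cripto) is a membrane co-receptor for Nodal. Esrrb binds DNA as a monomer at a TCAAGGTCA element and shares many sites with Oct4 and Sox2.

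The bases upstream of Lin28a and Pou5f1 are shown 5′ to 3′ on the gene's strand, from RefSeq on build GRCm38.p6. Both genes had Esrrb peaks over or near their starts, and both windows hold the bases marked in capitals. Capitals mark TCAAGG, the first 6 bases of the Esrrb element, or its reverse complement CCTTGA. The 250 bases before the Lin28a start lie at chr4:134018817-134019066 (minus strand), and those before the first of 2 Pou5f1 starts in that table lie at chr17:35505782-35506031 (plus strand).
Lin28a: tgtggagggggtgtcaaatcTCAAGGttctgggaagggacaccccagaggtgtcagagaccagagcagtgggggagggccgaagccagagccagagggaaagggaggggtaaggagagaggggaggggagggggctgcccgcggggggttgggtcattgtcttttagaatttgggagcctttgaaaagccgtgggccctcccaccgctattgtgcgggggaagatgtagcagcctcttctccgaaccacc
Pou5f1: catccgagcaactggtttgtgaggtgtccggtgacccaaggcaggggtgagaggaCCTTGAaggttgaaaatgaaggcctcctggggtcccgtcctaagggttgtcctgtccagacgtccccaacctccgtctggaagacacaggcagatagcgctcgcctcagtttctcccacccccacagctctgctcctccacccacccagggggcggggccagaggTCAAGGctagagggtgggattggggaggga
Lin28a has 1 match, beginning 230 bases before the start, and the Pou5f1 window has 2, beginning 195 bases (as CCTTGA) and 30 bases before it. No window of a member holds the whole TCAAGGTCA or the shorter AAGGTCA, searched on both strands from 250 bases before to 50 after a start. Of all 32851 promoters of that length, 0.423% hold TCAAGGTCA, 4.72% hold AAGGTCA and 14.4% hold TCAAGG, and TCAAGGTCA contains both shorter ones. The table has entries for 5 of the 8 genes. Sox2 has 1 TCAAGG match 43 bases after its start, and Utf1, Tdgf1 and the second Pou5f1 start have none. The Tdgf1 window is not printed, though its nearest peak ended at -589 bases from the start. The peaks are in build mm9, so the windows were set beside them only by distance from the start.

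Exonic totals ran from 11.1 to 31.8 M counts (M, mega) per library and intronic totals from 6.10 to 20.8 M. ChIP-seq depths of 10.7 to 67.5 M reads were worked out from the peak heights, as the totals that make them whole reads. The deepest RNA-seq library, G2 withdrawn replicate 1, correlated least with the others of its group, with a mean r of 0.975 over exons and 0.958 over introns, against up to 0.986 and 0.980 in other libraries. The 7 ES-cell markers summed to 3546 to 5273 counts per M (CPM) in every library, against 95.6 to 158 for fibroblast and feeder markers (5 of 10 past the filter on low counts), 297 to 471 for primitive endoderm (10 of 10), 115 to 192 for neural genes (5 of 7), 4.45 to 12.4 for mesoderm (5 of 7) and 49.3 to 151 for trophoblast (6 of 8). No marker was at 0 in all libraries. In these bulk samples fewer cells that express a gene and less RNA per cell cannot be told apart.

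Esrrb itself was read first. Its exonic level was 203, 278 and 247 CPM in the 3 early G1 libraries with DOX and 140, 193 and 155 CPM after withdrawal. In late G1 it was 323, 286 and 341 CPM with DOX and 160, 162 and 173 CPM after withdrawal, and in G2 304, 262 and 254 CPM against 195, 193 and 183 CPM. Every withdrawn library lay below every DOX library of its phase. The log2 changes in the 3 phases, in the order early G1, late G1 and G2, were -0.58 ± 0.13 (SE), -0.94 ± 0.14 and -0.52 ± 0.13 (edgeR adjusted p = 0.12, 0.00385 and 0.0699). All 3 passed once the replicate number entered as a block (edgeR adjusted p = 0.0138, 0.000395 and 0.0123). Reads from the transgene and from the disrupted locus are not separated in these counts.

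The first question was what happened to the 8 genes when Esrrb was lowered for 24 h. None of them passed the test in any phase in the fit without a block, although 3 of them, Sall4, Lin28a and Dppa2, were higher after withdrawal in all 9 comparisons of libraries with the same number. With the replicate number as a block, Dppa2 was higher in late G1 and in G2 and Lin28a in G2. Pou5f1, Sox2 and Tdgf1 passed in neither fit, in any phase. All levels below are exonic CPM scaled by TMM, a correction for library composition, and exon lengths are not in the tables, so levels are compared within a gene only.

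**Figure D1:**
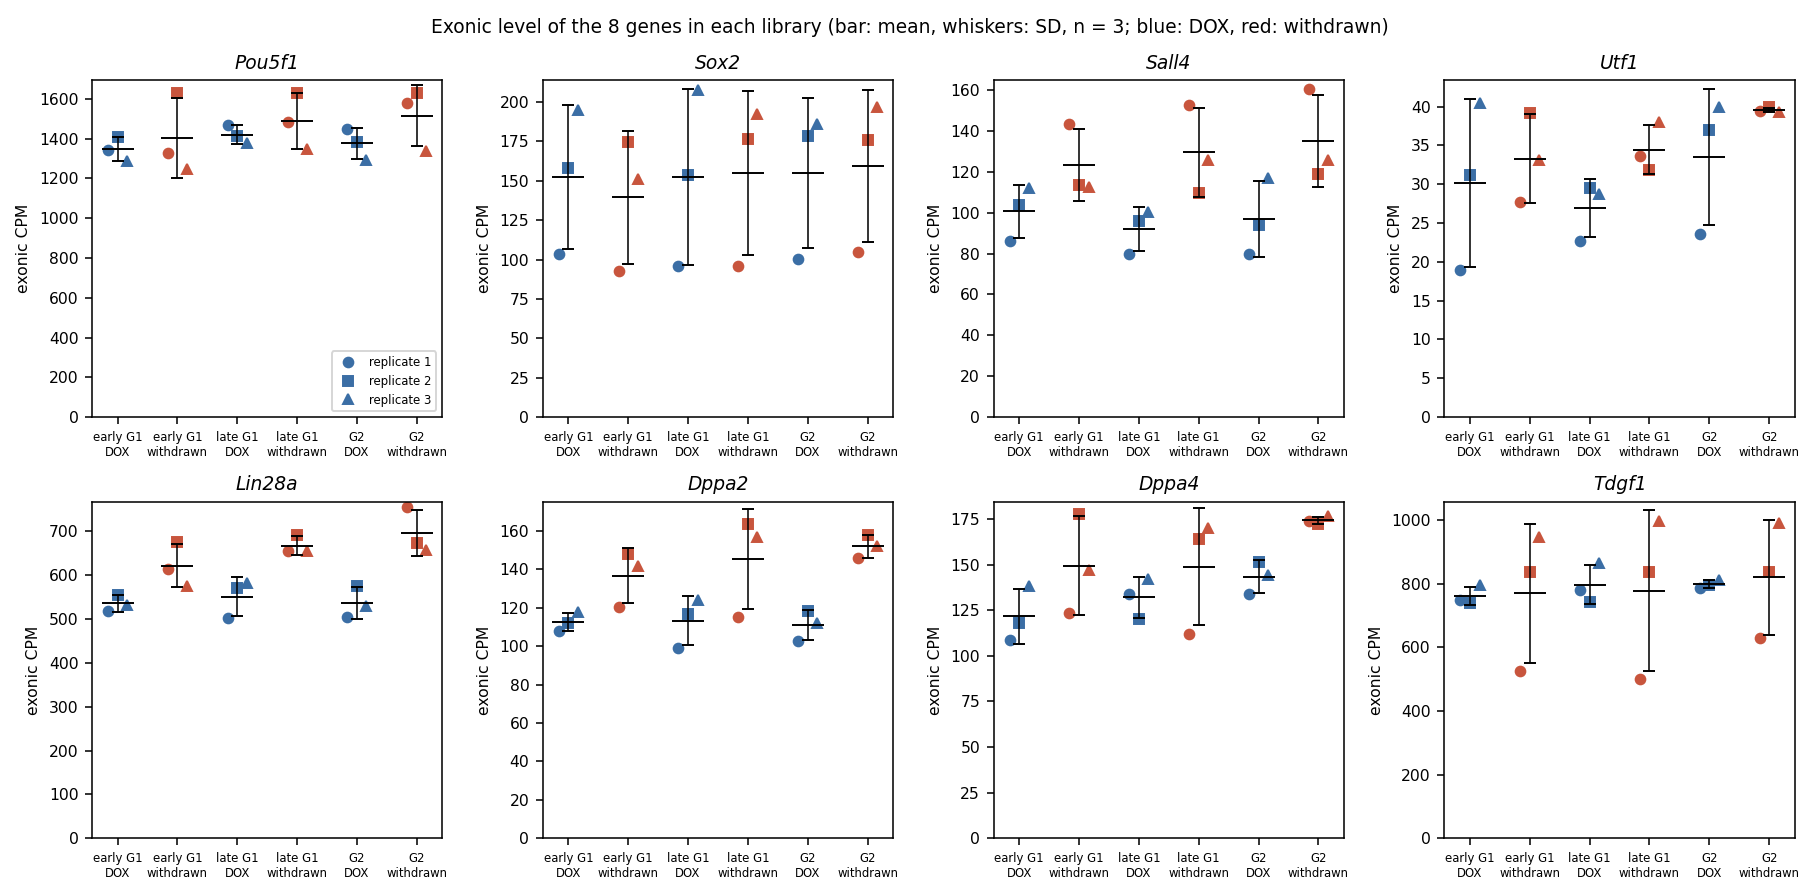
Exonic level (CPM, linear axis from 0) of the 8 genes in each of the 18 libraries, by phase and DOX state; symbols stand for replicates 1 to 3, bars for the mean and whiskers for the SD (n = 3). Sall4 and Lin28a show withdrawn libraries above DOX libraries in each phase, and Sox2 shows replicate 1 lowest in all 6 groups.

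Pou5f1, on mm9 chr17:35642976-35647722 (plus strand, NM_013633), varied least of the 8 genes between its lowest and highest library, by 1.31 times. Its early G1 libraries held 1342, 1411 and 1290 CPM with DOX and 1328, 1630 and 1249 CPM after withdrawal. In late G1 they held 1471, 1412 and 1378 CPM against 1485, 1631 and 1347 CPM, and in G2 1450, 1383 and 1295 CPM against 1580, 1628 and 1339 CPM. The groups overlapped in each phase, and replicate 2 was the highest withdrawn library in all 3. The log2 changes were 0.06 ± 0.12, 0.07 ± 0.12 and 0.14 ± 0.12 (edgeR adjusted p = 0.935, 0.864 and 0.624). Pou5f1 has processed pseudogenes, and how the authors counted reads shared with near-identical copies is unknown here.

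Sox2, on chr3:34548926-34551382 (plus strand, NM_011443), differed more between replicate numbers than between conditions. Replicates 1, 2 and 3 held 104, 158 and 195 CPM in early G1 with DOX and 92.8, 175 and 151 CPM after withdrawal. They held 95.7, 154 and 207 CPM in late G1 with DOX and 95.9, 176 and 193 CPM without it. In G2 the values were 100.1, 178 and 186 CPM with DOX and 105, 176 and 197 CPM after withdrawal. The 6 libraries numbered 1 lay between 92.8 and 105 CPM, below all 12 others, which began at 151 CPM. The log2 changes were -0.13 ± 0.34, 0.03 ± 0.34 and 0.04 ± 0.34 (edgeR adjusted p = 0.954, 0.988 and 0.972), and the block lowered these SEs to 0.10 without a call. Sox2 lies inside the longer noncoding transcript Sox2ot, whose reads may not be separable from its own.

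Sall4, on chr2:168573831-168592701 (minus strand, NM_201396), had the largest log2 change of the 8 in late G1 and G2, with a size that depended on the replicate number. In early G1 its libraries held 86.4, 104 and 112 CPM with DOX and 144, 114 and 113 CPM after withdrawal. Late G1 gave 79.9, 95.8 and 100.3 CPM against 153, 110 and 126 CPM, and G2 79.8, 94.0 and 117 CPM against 161, 119 and 126 CPM. Withdrawn libraries lay above DOX libraries in all 3 phases without overlap, and the replicate 1 pairs stood furthest apart. Across the phases, replicate 1 went from 79.8 to 86.4 CPM with DOX to 144 to 161 CPM after withdrawal, where replicate 2 went from 94.0 to 104 CPM to 110 to 119 CPM. The log2 changes were 0.29 ± 0.17, 0.49 ± 0.17 and 0.48 ± 0.17 (edgeR adjusted p = 0.625, 0.201 and 0.188), and 0.308, 0.0602 and 0.0569 with the block, so that no change of Sall4 passed.

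Utf1, a small chromatin protein of undifferentiated cells, lies on chr7:147129754-147131011 (plus strand, NM_009482) and had the lowest counts of the 8, from 239 to 1240 per library. Early G1 held 18.9, 31.2 and 40.4 CPM with DOX and 27.7, 39.1 and 33.1 CPM after withdrawal. Late G1 held 22.6, 29.5 and 28.8 CPM against 33.6, 31.8 and 38.0 CPM, and G2 23.5, 37.0 and 39.9 CPM against 39.5, 39.9 and 39.3 CPM. The groups stood apart only in late G1, and in each DOX group replicate 1 was the lowest. The log2 changes of 0.14 ± 0.23, 0.36 ± 0.23 and 0.24 ± 0.22 did not pass (edgeR adjusted p = 0.916, 0.545 and 0.663).

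Dppa2 and Dppa4 encode related SAP-domain proteins that act as a pair and lie side by side on chromosome 16, Dppa2 at chr16:48310386-48319626 (NM_028615) and Dppa4 at chr16:48283847-48294405 (NM_028610), both on the plus strand. Dppa2 held 108, 112 and 118 CPM in early G1 with DOX and 120, 148 and 142 CPM after withdrawal. In late G1 it held 99.0, 117 and 124 CPM against 115, 164 and 157 CPM. In G2 it held 103, 118 and 112 CPM against 146, 158 and 152 CPM. The withdrawn libraries lay above all DOX libraries in early G1 and G2, and in late G1 the withdrawn replicate 1 lay among the DOX values.

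The log2 changes of Dppa2 were 0.28 ± 0.13, 0.36 ± 0.13 and 0.45 ± 0.13 (edgeR adjusted p = 0.517, 0.232 and 0.106). Under the replicate block they were 0.27 ± 0.09, 0.35 ± 0.09 and 0.46 ± 0.09 (edgeR adjusted p = 0.0839, 0.0193 and 0.00378). The G2 call held in 6 of 6 blocked fits that left out 1 library of that phase (0.40 to 0.49 log2), among them the one without the deep withdrawn replicate 1 (0.40 ± 0.10, edgeR adjusted p = 0.0259). The late G1 call held in 2 of 6, those without DOX replicate 3 or withdrawn replicate 1.

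Dppa4 held 108, 118 and 138 CPM in early G1 with DOX and 124, 177 and 147 CPM after withdrawal. In late G1 it held 134, 120 and 142 CPM against 112, 164 and 170 CPM, with replicate 1 lower after withdrawal. In G2 it held 134, 152 and 144 CPM against 174, 172 and 176 CPM, the only phase without overlap. Its log2 changes were 0.30 ± 0.15, 0.17 ± 0.15 and 0.28 ± 0.15 and did not pass (edgeR adjusted p = 0.574, 0.703 and 0.419).

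Lin28a, on chr4:133559244-133574731 (minus strand, NM_145833), was the other gene past the test with the block. Early G1 held 518, 555 and 531 CPM with DOX and 613, 673 and 575 CPM after withdrawal. Late G1 held 501, 569 and 581 CPM against 654, 691 and 653 CPM, and G2 504, 574 and 529 CPM against 753, 672 and 656 CPM. No withdrawn library overlapped the DOX libraries of its phase. The log2 changes were 0.22 ± 0.10, 0.28 ± 0.10 and 0.37 ± 0.10 (edgeR adjusted p = 0.517, 0.233 and 0.084). With the block the G2 change was 0.38 ± 0.09 (edgeR adjusted p = 0.0108) and the others did not pass (edgeR adjusted p = 0.164 in early G1 and 0.0526 in late G1). The G2 call was lost without G2 DOX replicate 1 (0.35 ± 0.10, edgeR adjusted p = 0.0666) and without G2 withdrawn replicate 1 (0.29 ± 0.08, edgeR adjusted p = 0.0697), and held in the other 4 of 6 blocked fits.

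Tdgf1, on chr9:110842111-110848662 (minus strand, NM_011562), moved in opposite directions in different replicates. Early G1 held 748, 740 and 794 CPM with DOX and 525, 836 and 946 CPM after withdrawal. Late G1 held 781, 743 and 864 CPM against 501, 837 and 996 CPM, and G2 786, 795 and 812 CPM against 630, 838 and 991 CPM. Replicate 1 was lower after withdrawal in every phase, and replicates 2 and 3 were higher. The group means thus stayed close, with log2 changes of 0.02 ± 0.22, -0.03 ± 0.22 and 0.04 ± 0.22 (edgeR adjusted p = 0.993, 0.972 and 0.959), while the SD of the withdrawn groups was 182 to 253 CPM against 12.9 to 61.5 CPM with DOX.

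**Figure D2:**
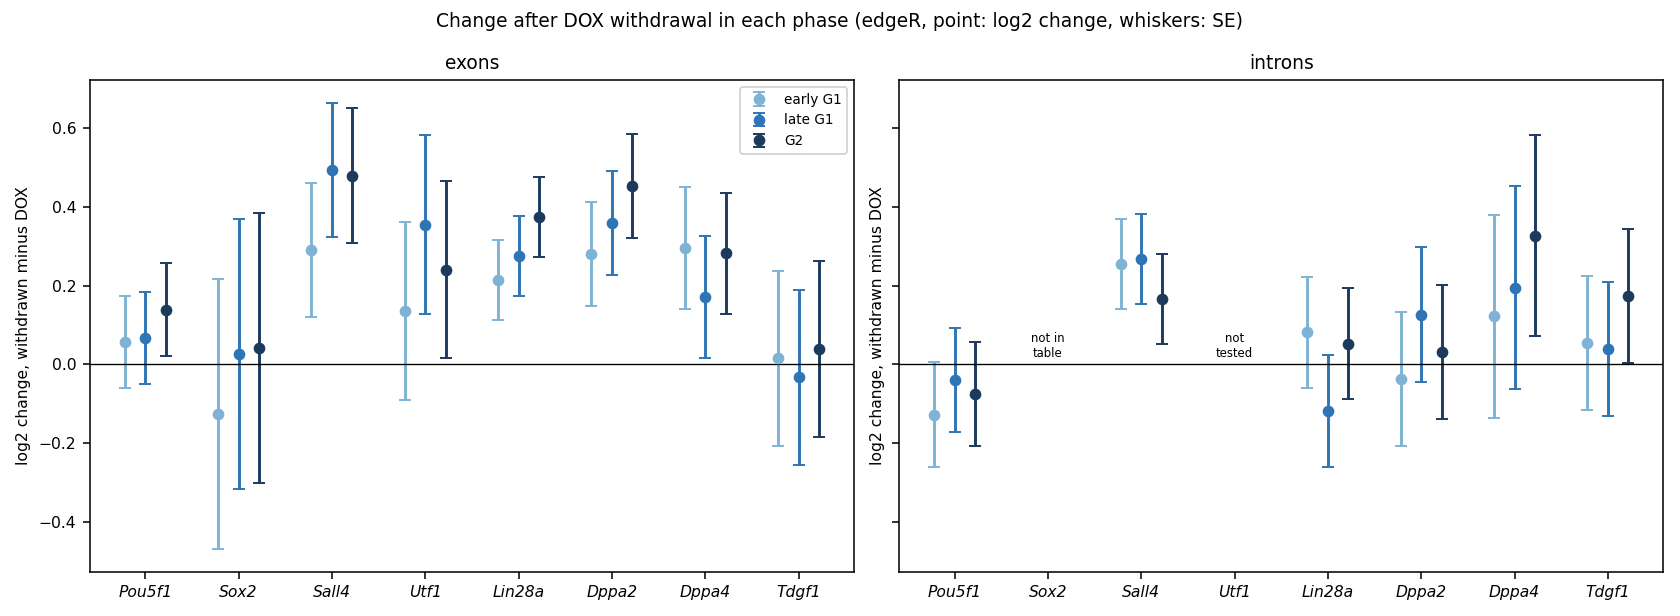
Log2 change after DOX withdrawal (withdrawn minus DOX) of the 8 genes in each phase, over exons (left) and introns (right), in the fit without the block; points are edgeR estimates from 3 libraries per group, whiskers the SE, and the line at 0 marks no change. In exons the estimates of Pou5f1, Sall4, Utf1, Lin28a, Dppa2 and Dppa4 lie above 0 in each phase, and Sox2 has the widest SE (0.34). In introns those of Sall4 lie above 0 in each phase, and the mean intronic CPM of Dppa4 and Tdgf1, not drawn, was also higher after withdrawal in each.

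Set against all genes, the count of 0 members in each phase compares with 0.163%, 0.461% and 0.972% of 14092 genes called in either direction in early G1, late G1 and G2. At an unadjusted p under 0.05, edgeR gave 2, 3 and 3 members, and DESeq2, with adjustment, called 0, 0 and 2 (Lin28a and Dppa2 in G2, adjusted p = 0.00786 and 0.0451). No share of all genes is given beside these counts, so they are not read as a result about the members. With the block 1.83%, 4.8% and 5.77% of all genes were called higher in the 3 phases, and 0, 1 and 2 of the 8 members. Higher values in all 9 same-number pairs were found for 8.53% of all genes and for 3 of the 8. The median difference of the 9 pairs was 0.33 log2 for Sall4 (range 0.01 to 1.01), 0.28 for Lin28a (0.11 to 0.58) and 0.40 for Dppa2 (0.16 to 0.51). Dppa4 was higher in 8 of 9 pairs, Utf1 in 7, Pou5f1 and Tdgf1 in 6 and Sox2 in 5. Without overlap, withdrawn libraries lay above DOX libraries for 3, 3 and 4 members, phase by phase, against 6.78%, 8.14% and 8.96% of all genes.

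**Figure D3:**
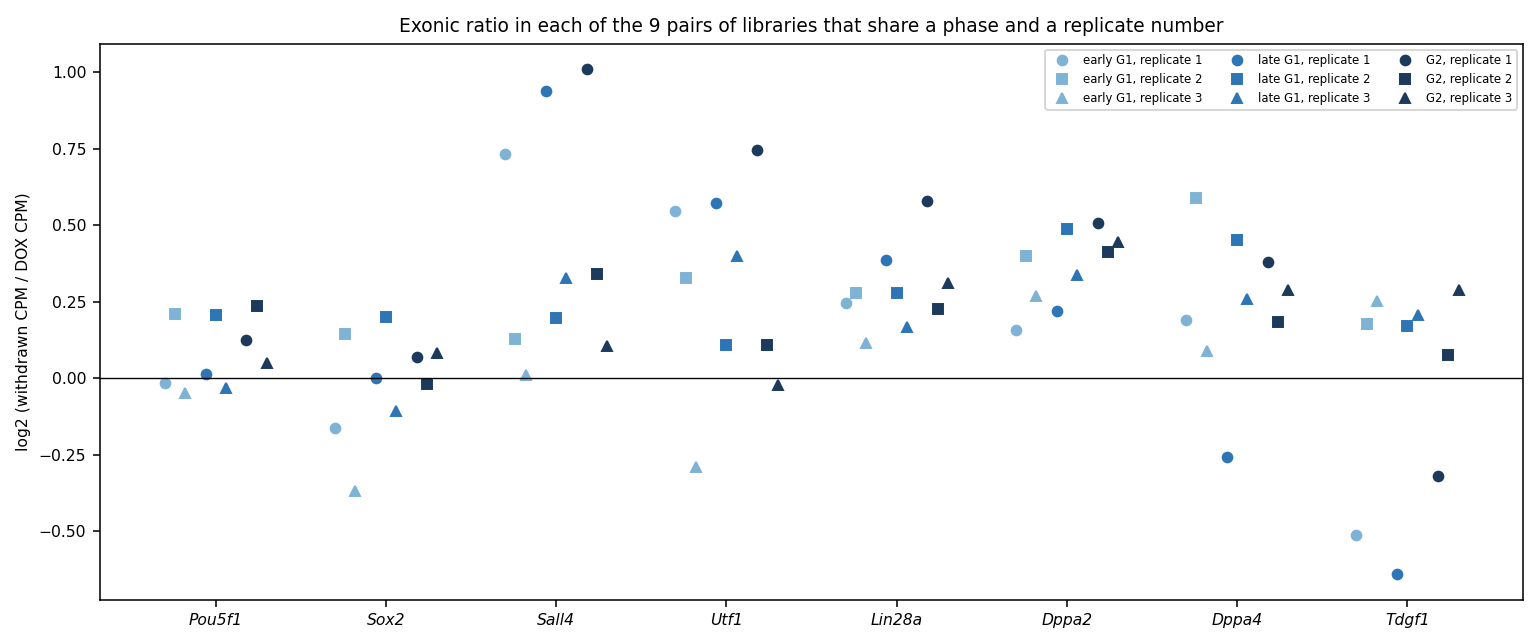
Log2 ratio of the withdrawn to the DOX exonic CPM of libraries with the same number, 9 pairs for each of the 8 genes, with the phases and replicate numbers marked as in the key. The 9 points of Sall4, Lin28a and Dppa2 all lie above 0, and those of Tdgf1 split by number, with the 3 pairs of replicate 1 below 0.

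Counts summed over the 3 phases gave 1 value per replicate and DOX state. The log2 changes were 0.44 ± 0.16 for Sall4, 0.39 ± 0.12 for Dppa2, 0.31 ± 0.11 for Lin28a, 0.28 ± 0.12 for Dppa4, 0.26 ± 0.18 for Utf1, 0.11 ± 0.11 for Pou5f1, 0.03 ± 0.18 for Tdgf1 and -0.0033 ± 0.28 for Sox2. None passed without the block (lowest edgeR adjusted p = 0.215, for Dppa2; 4 at an unadjusted p under 0.05; 0.155% of 14847 genes called). With it, Dppa2 (0.39 ± 0.08, edgeR adjusted p = 0.0156) and Lin28a (0.31 ± 0.09, edgeR adjusted p = 0.0426) passed, where 6.66% of all genes were called higher. Sall4 and Dppa4 missed the threshold there (edgeR adjusted p = 0.0612 and 0.0593). The mean of the 3 phase contrasts, which counts the phases of 1 number as separate libraries, called Sall4, Lin28a and Dppa2 without the block (edgeR adjusted p = 0.00768, 0.00324 and 0.00386). No share of all genes is given for this setting, for the unadjusted count or for the fits below with 1 library left out. The median change of the 8 was 0.27 against 0.0091 over all genes. These blocked calls rest on few libraries: the number of members called ran from 1 to 4 when 1 summed library was left out. Under the block a library left out leaves its partner without a pair, so the 6 such fits stand for 3 pairs left out. Lin28a (0.23 to 0.37) and Dppa2 (0.35 to 0.40) passed in 2 of the 6, those without replicate 1 with DOX or after withdrawal, as did Dppa4 (0.20 to 0.31). Sall4 did the opposite: it passed in the other 4 (lowest edgeR adjusted p = 0.00259), with changes up to 0.58, and missed without replicate 1, where its change was 0.18. Tdgf1 ran from -0.14 to 0.20 and passed as higher in the 2 fits without replicate 1, and Utf1 ran from 0.09 to 0.44 and passed in the 2 without replicate 3.

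Introns, whose reads come mostly from unspliced transcripts, were read next to ask whether the exonic differences had a counterpart there. Intronic CPM were scaled by TMM factors of 0.667 to 1.23, against 0.931 to 1.04 over exons, so they depend more on scaling. Sall4 was the one member with higher intronic values in all 9 pairs (smallest difference 0.017 log2), a pattern of 3.91% of 14075 genes. Its introns held 55.0, 46.4 and 46.2 CPM in early G1 with DOX and 58.2, 60.1 and 57.6 CPM after withdrawal. They held 42.4, 47.8 and 48.0 CPM against 61.5, 48.3 and 56.5 CPM in late G1, and 46.1, 46.4 and 50.2 CPM against 51.5, 51.1 and 57.6 CPM in G2. The groups did not overlap in any phase, as was so with withdrawn values above for 5.48%, 5.27% and 5.29% of all genes. The log2 changes of 0.25, 0.27 and 0.17, and of 0.22 ± 0.10 with the phases summed, did not pass (edgeR adjusted p = 0.742 summed, 0.119 with the block).

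Neither gene called in exons with the block showed an intronic change of that size. Summed over phases, the intronic log2 change was 0.02 ± 0.12 for Lin28a and 0.04 ± 0.15 for Dppa2, and their intronic levels ran from 15.8 to 25.9 CPM and from 14.4 to 24.1 CPM over the 18 libraries. The difference between exonic and intronic changes was not tested. Dppa4 (0.24 ± 0.18; 17.5 to 39.8 CPM), Tdgf1 (0.09 ± 0.15; 39.2 to 62.4 CPM) and Pou5f1 (-0.08 ± 0.12; 26.1 to 37.5 CPM) did not pass either. Utf1 introns held 0 to 15 counts per library, and its summed estimate of -0.47 ± 0.54 has no precision. In the fits of single phases 6 of the 7 genes passed the filter on low counts. No member was called in introns in single phases or with phases summed by edgeR, with or without the block, or by DESeq2. The mean of the 3 phase contrasts with the block, which counts the phases of 1 number as separate libraries, called Sall4 (0.23 ± 0.06, edgeR adjusted p = 0.00973). Without the block edgeR called 0%, 0.0142% and 0.0142% of all genes in the 3 phases. At an unadjusted p under 0.05, without the block, 1, 1 and 0 members passed. No share of all genes is given for this count or for the mean of the phase contrasts.

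Differences in level between phases were not resolved for any of the 8. Averaged over DOX states, G2 minus early G1 ran from 0.04 for Sall4 to 0.23 ± 0.11 for Dppa4 (edgeR adjusted p = 0.552), with Utf1 at 0.20 ± 0.16 and Pou5f1 at 0.07 ± 0.08. Late G1 minus early G1 ran from -0.06 to 0.08, and G2 minus late G1 from -0.0091 to 0.26. No member passed in any of the 3 phase contrasts with edgeR, with or without the block, or with DESeq2, and without the block none reached an unadjusted p of 0.05. In the fit without the block, 0% of all 14092 genes were called in these contrasts. Ccna2, the reporter gene, had DOX means of 313 CPM (early G1), 347 CPM (late G1) and 424 CPM (G2). Its withdrawn means were 329, 370 and 434 CPM in that order. Its DOX replicate 1 rose from 257 CPM in early G1 to 421 CPM in G2. Its withdrawn replicate 2 held 386 CPM in both. With no gene called between the sorted phases, these contrasts cannot show that the 8 genes stay level. In order of group means, Dppa4 ran from 122 ± 15.2 CPM (SD, n = 3) in early G1 with DOX through 132 ± 11.2 in late G1 and 143 ± 8.98 in G2 to 174 ± 2.11 in G2 after withdrawal, and neighbouring DOX phases did not differ beyond their spread.

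Whether the response to withdrawal itself differed between phases was tested with an interaction term. For Lin28a and Dppa2 the point estimates increased from early G1 to G2, yet the difference in response between G2 and early G1 was not resolved for any member. Those differences ran from -0.01 to 0.19 log2, and those of late G1 against early G1 from -0.13 to 0.22. The count was 0 of 8 with edgeR, with or without the block, and with DESeq2, and 0 at an unadjusted p under 0.05. The passing of a gene in G2 and not in early G1 is therefore not shown to be a difference between phases.

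The 8 genes did not vary as 1 group over the 18 libraries. The Pearson correlation of log2 CPM was 0.84 for Lin28a and Dppa2, 0.80 for the neighbours Dppa2 and Dppa4, 0.77 for Sall4 and Lin28a and 0.72 for Sox2 and Tdgf1. It was -0.12 for Pou5f1 and Sox2 and lowest, -0.39, for Sall4 and Tdgf1. These are descriptions over 18 libraries that share 3 replicate numbers, DOX state and phase, which can move many genes together.

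Mean log2 CPM reached 2 in 10676 genes, a count that includes the members, which were not ranked. Among the others the closest pattern to Pou5f1 was that of Gps1 (r = 0.90) and Eif4a1 (0.88). To Sox2 the closest were Dyrk1a and Jade1 (both 0.97), to Sall4 Wdfy3 and Sec24c (both 0.96), and to Utf1 Tns3 (0.96) and Lig3 (0.93). Lin28a was closest to Elavl1 and Glul (both 0.93), Dppa2 to Ube2e1 (0.96) and Fam169a (0.95), Dppa4 to Farsb (0.94) and Lamp3 (0.93), and Tdgf1 to Zdhhc6 (0.94) and Paxbp1 (0.91).

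Genes around the 8 were read from 6 lists over the summed exonic counts. In the fit without the block no gene of these lists passed with phases summed, and within single phases only Esrrb did, in late G1. The genes named in the next 3 paragraphs passed with the replicate block and were named after their values were seen. In that fit 6.66% of all genes were called higher and 5.02% lower. Of the 30 list and marker genes called there, Esrrb among them, 14 passed in all 6 blocked fits that left out 1 summed library, 6 in 4, 2 in 3 and 8 in 2.

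Of 29 partner factors and cofactors of Oct4, Sox2 and Sall4, 5 were higher and 2 lower (median change 0.17, all genes 0.0063). Among the higher genes, Tcf7l1, a repressor at the end of Wnt signalling, was higher by 0.92 ± 0.22, Gatad2b and Hdac1, both NuRD subunits, by 0.53 ± 0.15 and 0.45 ± 0.11, and Rif1 by 0.35 ± 0.08. Tcf7l1 levels were low, with group means of 3.31 to 3.93 CPM with DOX and 6.59 to 7.99 CPM after withdrawal. Besides Esrrb, Wdr5, a subunit of histone methyltransferase complexes, was lower (-0.33 ± 0.09; edgeR adjusted p = 0.0355). Without replicate 1 the changes came down to 0.52 for Tcf7l1, 0.30 for Hdac1 and 0.27 for Gatad2b, and of these only Gatad2b no longer passed. Rif1 passed only in the 2 fits without replicate 1, Wdr5 in 3 of 6 and Hdac1 in 4 of 6. Of 17 genes known as Oct4 and Sox2 targets, 4 were higher, namely L1td1 (0.71 ± 0.12; edgeR adjusted p = 0.00842), Jarid2 (0.53 ± 0.11), Rest (0.49 ± 0.10) and Phc1 (0.45 ± 0.12), and Tcl1 was lower (-0.35 ± 0.09). The median of these targets was -0.08, and 5 of the 17 had a change above 0. Without replicate 1 Jarid2 came down to 0.35 and Phc1 to 0.24, both still called, and Tcl1 passed only in the 2 fits without that replicate.

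Around Lin28a, 5 of 17 genes of the Lin28 and let-7 pathway were higher and none lower (median 0.22; 13 of 17 above 0). They were Hmga2 (0.62 ± 0.15), Lin28b (0.46 ± 0.09; edgeR adjusted p = 0.0124), Igf2bp1 (0.41 ± 0.10), Zcchc11 (0.40 ± 0.08), which adds uridines to let-7 precursors, and Trim71 (0.34 ± 0.09). Hmga2, Lin28b, Igf2bp1 and Trim71 are known as targets of let-7. Around Tdgf1, 17 of 19 Nodal pathway genes passed the filter on low counts. Pcsk6, a convertase that cleaves Nodal (-0.63 ± 0.11; edgeR adjusted p = 0.00787), and the inhibitor Smad7 (-0.49 ± 0.10) were lower, and Skil, a repressor of Smad activity, was higher (0.48 ± 0.13). Without replicate 1 Hmga2 came down to 0.38, Igf2bp1 to 0.25 and Trim71 to 0.22. Trim71, Zcchc11 and Skil passed only in the 2 fits without that replicate, and Lin28b and Smad7 in 4 of 6, not without replicate 3.

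Among 20 tested of 21 relatives of Pou5f1, Sox2 and Sall4, 5 were higher and 1 lower (median 0.35; 15 above 0). Sall3 (0.85 ± 0.20), Sall2 (0.55 ± 0.16), Sox13 (0.85 ± 0.16), Sox11 (0.37 ± 0.10) and Pou2f1 (0.55 ± 0.09) were higher and Sox21 was lower (-0.64 ± 0.15). Group means of Sall3 lay near the floor, at 1.10 to 1.27 CPM with DOX and 1.94 to 2.37 CPM after withdrawal. Those of Sox13 were low too, at 3.83 to 4.13 CPM and 6.80 to 8.02 CPM. Sall2 came down to 0.33 without replicate 1 and no longer passed, and Sox11 to 0.24 without replicate 3. Sox11 and Sox21 passed only in the 2 fits without replicate 1, and Sall3 in 4 of 6, not without replicate 2. Of 9 tested 2-cell-like and germline genes linked to Dppa2 and Dppa4, none was higher and the germline gene Dazl was lower (-0.37 ± 0.10; edgeR adjusted p = 0.0421, called in 3 of 6 fits with 1 library left out).

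Markers of other cell types were read in the same fit. Of 5 tested neural markers, Pax6 (0.65 ± 0.17) and Nes (0.38 ± 0.11) were higher and none was lower, with a median change of 0.07 and 3 of 5 above 0. Pax6 levels were low, with group means of 1.68 to 2.84 CPM with DOX and 2.87 to 4.06 CPM after withdrawal. Pax6 passed only in the 2 fits without replicate 1, where Nes came down to 0.21. The sum of the 7 neural genes went from 115 to 143 CPM with DOX to 118 to 155 CPM after withdrawal in early G1, from 143 to 167 to 132 to 143 CPM in late G1 and from 140 to 176 to 132 to 192 CPM in G2, so that it was not higher in late G1. Of 10 primitive endoderm markers, Gata6 was lower (-1.37 ± 0.28) and none was higher, with a median change of 0.06. Gata6 lay near the floor, with group means of 1.10 to 1.88 CPM with DOX and 0.41 to 0.81 CPM after withdrawal. Their sum went from 297 to 437 CPM with DOX to 353 to 422 CPM after withdrawal in early G1, from 316 to 417 to 307 to 439 CPM in late G1 and from 321 to 443 to 354 to 471 CPM in G2, with overlap in each phase. The part of these markers in the changes of the lists and members was not tested.

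Esrrb ChIP-seq was used to ask where Esrrb was bound around the 8 genes and how much of it was held in mitosis. Pou5f1 had 14 peaks within 50 kb of its start, a number reached by 5 of 20300 genes (0.0246%), and Sall4 had 9, reached by 0.655%. Utf1 had 6, Lin28a and Tdgf1 4 each and Sox2 3, while Dppa2 and Dppa4 shared the same 2. The median gene had 1 peak, and 51.0% had any. Of the 42 peaks, 28 were nearer to a member's start than to that of any other gene, 7 of 14 for Pou5f1 and 8 of 9 for Sall4. Windows of neighbouring genes overlap, so these counts are not independent between genes. The outermost peaks kept were at 48949 bases from Sox2 and -49094 bases from Lin28a, and the next one outside was at -50594 bases from Lin28a.

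Heights are log2 reads per kb of peak per M reads, as the authors deposited them. In interphase with DOX the group mean of the 42 peaks ran from 0.19 to 3.57, with a median of 2.08 against 1.54 for all peaks. The highest lay at -1413 bases from the Tdgf1 start (chr9:110849251-110850900), where the 4 libraries read 2.40, 3.75, 3.33 and 4.81 and the 2 withdrawn libraries -1.99 and -0.81. The Utf1 peak at 1946 bases past its start (chr7:147131401-147132000) read 2.38, 3.18, 2.58 and 3.99 with DOX and -2.41 and -0.08 after withdrawal. Replicate 4 was the highest of the 4 in each of these, and by the depth worked out from the heights it is also the shallowest library (10.7 M reads).

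A peak covered the start of 2 of the 8 genes, Dppa2 and Lin28a. The Dppa2 peak (chr16:48310051-48310650, centre at -36 bases) read 1.51, 3.02, 2.51 and 4.19 in interphase with DOX, -2.41 and -0.69 after withdrawal, 0.39, -0.21, 0.10 and -0.18 in mitosis with DOX and -1.16 and -0.92 in mitosis after withdrawal. The Lin28a peak (chr4:133574701-133575300), which spans -569 to 30 bases from the start and so takes in the window printed above, read 0.19, 0.80, 1.22 and 3.18 in interphase with DOX and -4.15 and -3.60 after withdrawal. In mitosis it read -2.03, -1.02, -0.58 and -2.02 with DOX and -3.63 and -1.77 after withdrawal. At Pou5f1 the nearest peak (chr17:35642101-35642400) ended at -576 bases from the start, outside the printed window, and read 1.39, 2.34, 2.22 and 5.14 in interphase with DOX against -1.99 and -2.02 after withdrawal.

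After 48 h of withdrawal all 42 peaks were lower in interphase, as were 99.6% of all peaks, with a median log2 change of -3.90 against -3.74. The changes were -4.78 ± 0.81 at the Pou5f1 peak, -4.36 ± 0.62 at the Dppa2 start, -5.22 ± 0.94 at the Lin28a start and -4.97 ± 0.59 at Tdgf1 (limma adjusted p = 9.71e-06, 1.41e-06, 1.87e-05 and 2.5e-07). In mitosis 40 of the 42 were lower than in interphase with DOX, as were 91.4% of all peaks, with medians of -2.36 and -2.26. Both exceptions lay in Sall4, at 651 bases past its start (-1.48 ± 0.74, limma adjusted p = 0.0613) and at 11451 bases (-1.81 ± 0.97, limma adjusted p = 0.0778). How the regions were chosen is not known here. If they were listed for their height in interphase with DOX, a fall from that group was largely set in advance. The changes and p-values against interphase with DOX are therefore a description. Each height is per M reads of its library, so a fall shared by nearly all peaks and a change in the share of reads in peaks cannot be told apart. Scaled to the median peak of each library, 0 of the 42 peaks differed after withdrawal in interphase and 1 differed between mitosis and interphase.

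**Figure D4:**
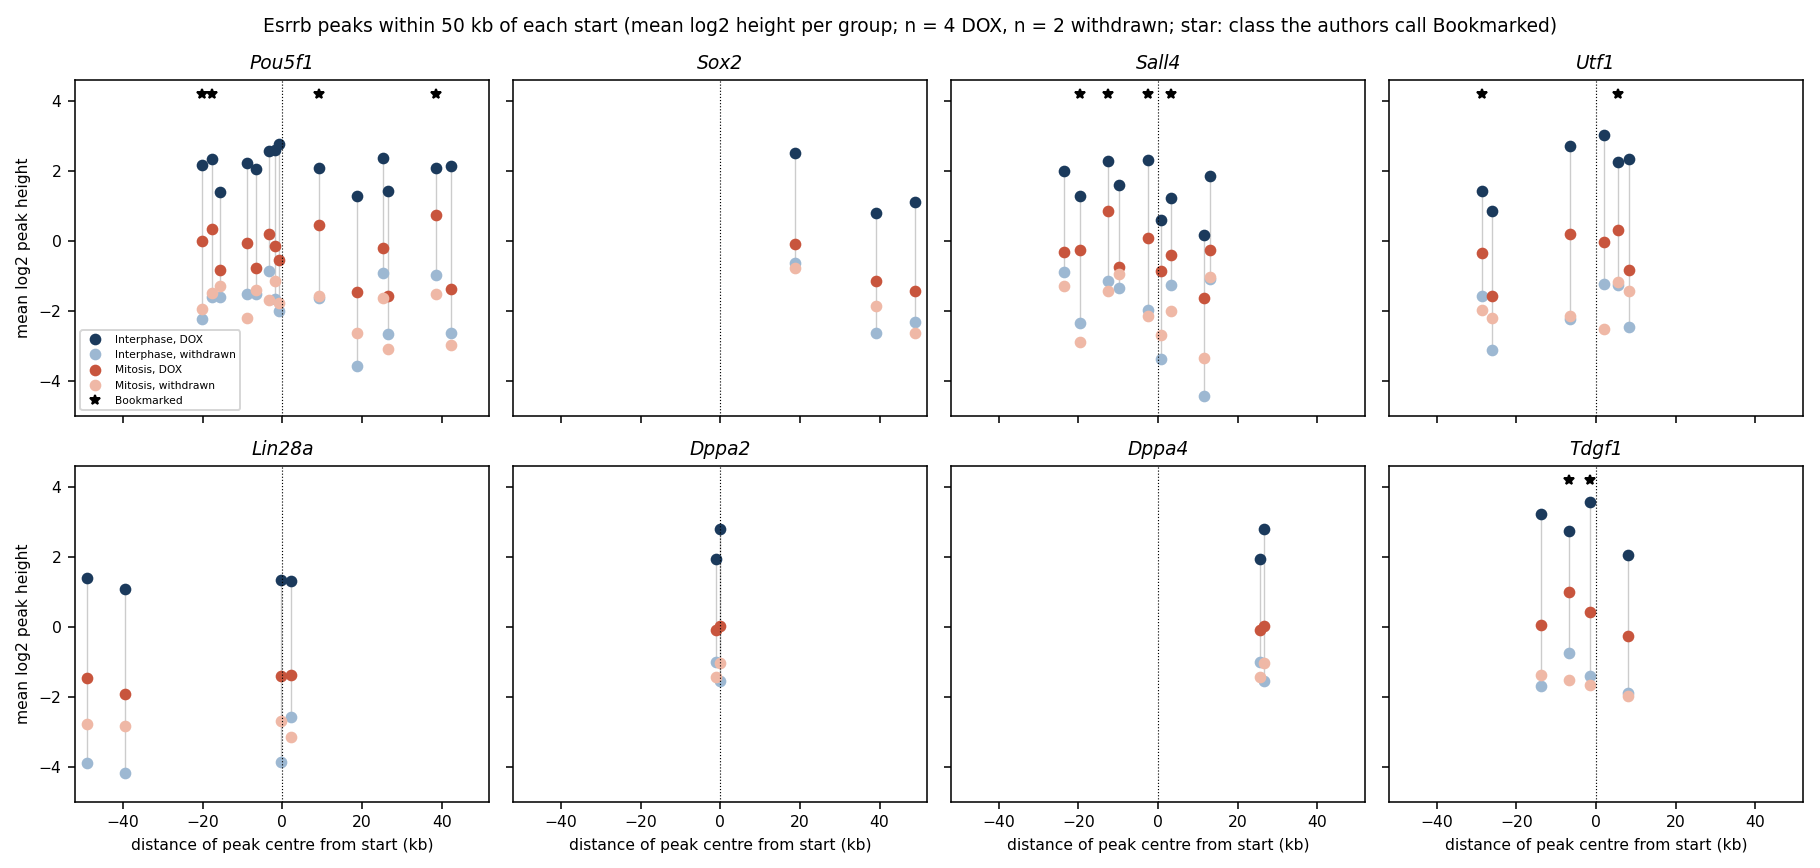
Mean log2 height (reads per kb per M reads) of each Esrrb peak within 50 kb against its distance in kb from the start of each of the 8 genes, in interphase and mitosis, with DOX (n = 4) and after withdrawal (n = 2); stars mark classes the authors call Bookmarked. Interphase heights with DOX, from 0.19 to 3.57, are the highest of the 4 groups at each peak, and Pou5f1 and Sall4 carry 4 starred peaks each.

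The authors sort peaks into 5 classes and call classes 1 to 3 Bookmarked, per the file headers, and the rule for the classes is not known here. Of the 42 peaks 12 were Bookmarked (28.6%), against 13.6% of all peaks, with 11 in class 2, 1 in class 3 and none in class 1. Pou5f1 and Sall4 had 4 each and Utf1 and Tdgf1 2 each, and Sox2, Lin28a, Dppa2 and Dppa4 had none. In these peaks mitosis minus interphase ran from -3.14 to -1.35 (median -1.77), and in the 30 Lost peaks from -3.51 to -1.48 (median -2.60). The classes may rest on these same heights, so the 2 medians are a description.

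In mitosis, 13 of the 42 peaks were lower after withdrawal, where 22.4% of all peaks were called. They were 9 of 12 Bookmarked and 4 of 30 Lost peaks. The classes may rest on these same heights, and no share over all Bookmarked or all Lost peaks is given, so this split is a description. At Tdgf1 both Bookmarked peaks were among them, at -1413 bases (-2.08 ± 0.59, limma adjusted p = 0.0193) and -6813 bases (-2.51 ± 0.53, limma adjusted p = 0.00565). All 4 Bookmarked Pou5f1 peaks were too, led by the one at 38574 bases (-2.27 ± 0.56, limma adjusted p = 0.0113), as were 3 of 4 in Sall4 and 2 Lost peaks of Utf1. Neither the Dppa2 nor the Lin28a start peak passed there (-1.06 ± 0.62 and -1.29 ± 0.94; limma adjusted p = 0.194 and 0.284). This count rests on 2 withdrawn libraries and depended strongly on which libraries were kept. It was 4 without DOX replicate 4 and 4 without the E14Tg2a libraries. No share of all peaks is given for these fits, so their counts are not read as a result about the members' peaks. Leaving out a withdrawn library leaves 1 in its group, and no count is given for that.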

How the data were processed

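The members, gene lists and tests were chosen with earlier results of these data known. Exonic and intronic tables deposited by the authors hold raw counts per RefSeq transcript, per the file headers, and the deposited peak table holds 14559 Esrrb peaks in mm9 with heights as log2 reads per kb per M reads, a unit read from its values (whole reads to within 0.05 read; an empty peak is set to 0.9 read). The submitters' processing notes name mm9, CASAVA 1.8, Bowtie and DESeq2 without roles; no source used here gives the counter, the strand setting or the peak caller. Peak columns with noco in their heading were matched to mitosis by their number. The design allowed for counts in the peak table; as it holds log2 values, limma was used.

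The 18 RNA-seq libraries entered 1 edgeR quasi-likelihood fit of 6 group means (edgeR 4.0.16, R 4.3.3; filterByExpr, TMM, Benjamini-Hochberg adjustment over all 14092 exonic or 14075 intronic genes at 0.05; 12 residual degrees of freedom). Counts summed over phases were fitted apart. Heights entered 1 limma 3.58.1 fit of 4 groups. SEs are the absolute log2 change divided by the square root of F. Both fits were also run on simulated data with independent libraries and no effect of the replicate number, which does not bear on the blocked calls. Within a phase, withdrawn and DOX libraries of the same number deviated together from their group means (r = 0.181 to 0.597 over exons, 0.139 to 0.565 over introns). Over all pairs of groups, same-number r ran from -0.0617 to 0.870 over exons and from 0.0879 to 0.798 over introns. The labels do not say what libraries of 1 number share, so the block, with 1 effect per number across all 6 groups, is an assumption. Values with the number as a block are given where they change a call. Named genes are all members, their peaks within 50 kb, genes of the other lists called without the block (Esrrb alone), and the 2 genes most correlated with each member. List genes called only with the block were named after their values were seen; 1 more is counted but not reported here. Alternatives were the block, no filter, upper-quartile scaling, DESeq2 1.42.0, single-phase fits, each library left out, a 10 or 100 kb window and centring on the median peak; leaving out a library together with the block and the mean of phase contrasts with the block were added after seeing the data.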

Additional observations from a re-analysis of the deposited data

Results flagged for a closer look

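One peak height was set apart within its group: the Esrrb peak at -13938 bases from the Tdgf1 start read -0.36 (51 reads) in mitosis with DOX replicate 1, while the other 3 libraries read 0.21 each. The gap to the nearest library took up 0.989 of the group's range, above Dixon's critical value for 4 libraries. This was 1 of 84 groups tested, and chance alone flags about 1 group in 20.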

How the results depend on the processing

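Without the replicate block, no member was called in exons with no filter, upper-quartile scaling, a single-phase fit or 1 library left out. With the replicate block 1 member was called in late G1, 2 in G2 and 2 with phases summed, and with 1 library also left out 0 to 1, 1 to 3 and 1 to 4. DESeq2 called 2 in G2. The mean of the 3 phase contrasts called 3 in exons, and with the block 5 in exons and 1 in introns. The block changed no other member's call. For DESeq2, the mean of the phase contrasts and the fits with a library left out, no share of all genes is given. Those counts are therefore not a result about the members. In the ChIP-seq DOX groups, deviations of same-numbered libraries correlated at r = 0.469, 0.238 and 0.117 in replicates 1, 3 and 4. In replicate 2, the wild-type E14Tg2a libraries, r was -0.306. Numbers were not taken as pairs in the ChIP-seq fit reported here.

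For peaks, centring on the median peak left 1 called between mitosis and interphase, 0 for withdrawal in interphase and 0 in mitosis. A 10 kb window held 21 peaks, of which 20, 21 and 8 were called in that order. Of all peaks, 91.4%, 99.6% and 22.4% were called lower in these contrasts. For withdrawal in mitosis the count was 4 without the E14Tg2a libraries and 0 to 24 with 1 library left out. Under centring the Sall4 peaks at 11451 and 651 bases gave 0.31 and 0.64 for mitosis minus interphase, and the peak shared by Dppa2 and Dppa4 at 25528 bases from Dppa4 gave 0.071. For withdrawal in interphase that shared peak gave 0.70 and the Sox2 peak 0.51. In mitosis the nearest peaks gave 0.16 (Pou5f1), 0.70 (Sox2), 0.11 (Lin28a), 0.053 (shared peak) and 0.33 (Dppa2). Of these, the interphase changes (-2.96 at the shared peak, -3.15 at Sox2) and mitosis minus interphase at the shared peak (-2.05) were called before centring. No reversed peak passed under centring, and the cause was not tested.

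Among genes, the changes that turned sign were not called in the fit without the block. Tdgf1 gave -0.025 in early G1 and -0.0044 summed with the replicate block, -0.0021 and -0.0081 with upper-quartile scaling, and -0.031 as the mean of phase contrasts with the block. Sox2 gave -0.0073 in late G1 with upper-quartile scaling, and 0.0025 summed with the block and 0.00089 with no filter. With 1 library left out, early G1 changes ran from -0.065 to 0.15 (Pou5f1), -0.34 to 0.11 (Sox2), -0.11 to 0.43 (Utf1) and -0.15 to 0.23 (Tdgf1), and late G1 changes from -0.011 to 0.13 (Pou5f1), -0.23 to 0.34 (Sox2) and -0.25 to 0.20 (Tdgf1). In G2 they ran from -0.19 to 0.28 (Sox2) and -0.12 to 0.21 (Tdgf1), and summed from -0.25 to 0.22 (Sox2) and -0.15 to 0.22 (Tdgf1). Summed introns ran from -0.83 to 0.48 (Utf1), -0.052 to 0.086 (Lin28a), -0.050 to 0.15 (Dppa2) and -0.044 to 0.23 (Tdgf1). G2 minus early G1 ran from -0.0052 to 0.22 (Sox2), -0.037 to 0.10 (Sall4) and -0.027 to 0.17 (Tdgf1). Esrrb in late G1 gave -0.92 in the fit of that phase alone and no longer passed. Precision is set by 3 libraries a group and a biological coefficient of variation of 0.187 over exons (0.115 with the block).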
